A study of Mus musculus with 12 samples.

Results

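Lung RNA from mice that received recombinant human PBEF and were also ventilated was compared with lung RNA from control mice. The comparison used 3 arrays of the combined treatment and 3 control arrays, which were 6 of the 12 arrays in the study, each carrying 45101 Affymetrix probe sets. All mice were 8 to 12 weeks old, and the labels name no strain or genotype. In the combined group each mouse was given 20 µg of recombinant human PBEF (rhPBEF) into the trachea, dissolved in water at 1.5 µl per gram, and was mechanically ventilated over 4 hours with breaths of 30 ml per kg, a tidal volume far above normal. Control mice received phosphate-buffered saline. The remaining groups, also of 3 arrays each, had received the same dose of rhPBEF without ventilation or the same ventilation without rhPBEF, and they enter here only where the combined treatment is set against its components. The labels do not give the time from instillation to tissue collection. They also do not say whether ventilated mice received saline, or whether each replicate was a separate mouse, so the p-values reflect only how far these arrays vary, which may be technical. There is no group ventilated at a smaller breath, so ventilation, anaesthesia and intubation cannot be told apart. No group is labelled as given water alone, so rhPBEF and its water vehicle cannot be told apart either. Genes were represented by the probe set with the highest mean over the 12 arrays among those with a single gene symbol, which gave 18193 genes, and 12921 of them lay above the level filter and were tested.

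PBEF is another name for nicotinamide phosphoribosyltransferase, which makes a precursor of NAD inside cells and also circulates; its mouse gene is Nampt. Released outside cells it is known as an inflammatory protein, and large mechanical breaths are known to injure the lung, a condition called ventilator-associated lung injury. In inflamed lungs, receptors such as the Toll-like receptors activate the transcription factor NF-kB, which moves into the nucleus, switches on chemokines and cytokines that recruit neutrophils, and also switches on its own inhibitors. The lung's capillary endothelium is kept quiescent by blood flow and by bone morphogenetic protein (BMP) signals through the receptor ALK1, with target genes such as the Id and inhibitory Smad genes.

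Defining markers of lung epithelium and endothelium were abundant. Sftpc, Sftpa1, Sftpb, Scgb1a1, Ager, Cldn5 and Cdh5 lay between the 93.1 and the 100 percentile of tested genes, and their changes with the combined treatment had adjusted p between 0.398 and 0.951. The 12 array medians differed by little, from 6.997 to 7.07, and within groups the correlation between arrays was 0.983 to 0.997. On the component of largest variance, which held 43.3% of it, the control arrays scored from −26.3 to −25.7. Combined replicates 1 and 2 scored 35.8 and 22.3, whereas combined replicate 3 scored 0.11, near rhPBEF replicate 3 at 1.16 and ventilation replicate 2 at −0.15. Combined replicate 3 thus stood apart from the other arrays of its group, and results are given with and without it where it changed them. Ventilation replicate 2 stood apart on the next component, which held 21.8% of the variance, at −41.8 against −7.36 and 5.62 for the other ventilation arrays. Averaged over the AP-1 and ATF list its log2 levels minus the control mean were 1.53, against 0.36 and 0.31, and over the heat shock list 1.45, against −0.18 and −0.89. Its part in the ventilation values below was not tested beyond the fits without it. The table holds no detection calls, so low levels cannot be told from background. In RNA from whole lung, fewer cells of a type and less RNA per cell cannot be told apart, and this applies to every cell marker below.

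The combined treatment raised a set of inflammatory genes by large factors and lowered other genes by mostly small ones. Of 12921 genes, 1136 passed an adjusted p of 0.05 in limma (8.79%), with 508 higher (3.93%) and 628 lower (4.86%). Centring each array on its median gave 525 higher and 407 lower, a different split. More genes were also higher than lower without control replicate 1, 2 or 3, and without combined replicate 1 or 2. Without combined replicate 1 the counts were 116 higher and 36 lower. In the other fits that left out an array more were lower, with 944 higher and 1554 lower without combined replicate 3. Changes of at least 2-fold were 224 of the genes that rose and 32 of those that fell. A further cut at 4-fold left 64 genes higher and 1 lower, and at 8-fold 28 were higher. The median change over all tested genes was −0.06 on the log2 scale. For 4772 genes (36.9%) the combined and control arrays did not overlap, so non-overlap alone is common here. These shares and the median are the background against which the counts in each gene group are read. Among genes that passed and were at least 2-fold higher, 34 had a control mean at or below the filter level of 6.42, so their control level, and with it the fold, is the least certain.

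The count of genes depended on single arrays. Without control replicate 1, 2 or 3 it was 189, 192 or 263, and without combined replicate 1 or 2 it was 152 or 171. Without ventilation replicate 2, which enters only the estimate of the spread, it was 1815. Without combined replicate 3 it was 2498, of which 1096 were also among the 1136. Combined replicate 3 was the lowest of its group in 418 of the 508 genes that rose and the highest in 466 of the 628 that fell. A core of 129 genes, 102 higher and 27 lower, passed without any of the 12 arrays in turn. Among the 25 largest rises 17 belonged to it, and among the 25 largest falls 3 did: Smad6, She and Grb7. No call turned its sign in any of these 12 fits. This was fixed in advance for all but 1 of the called genes, because their combined and control arrays did not overlap. For the gene lists below, leave-out counts are the numbers of members past the threshold in the direction that most of the list's calls took, or in the direction named, without control replicates 1, 2 and 3, then without combined replicates 1, 2 and 3.

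**Figure D1:**
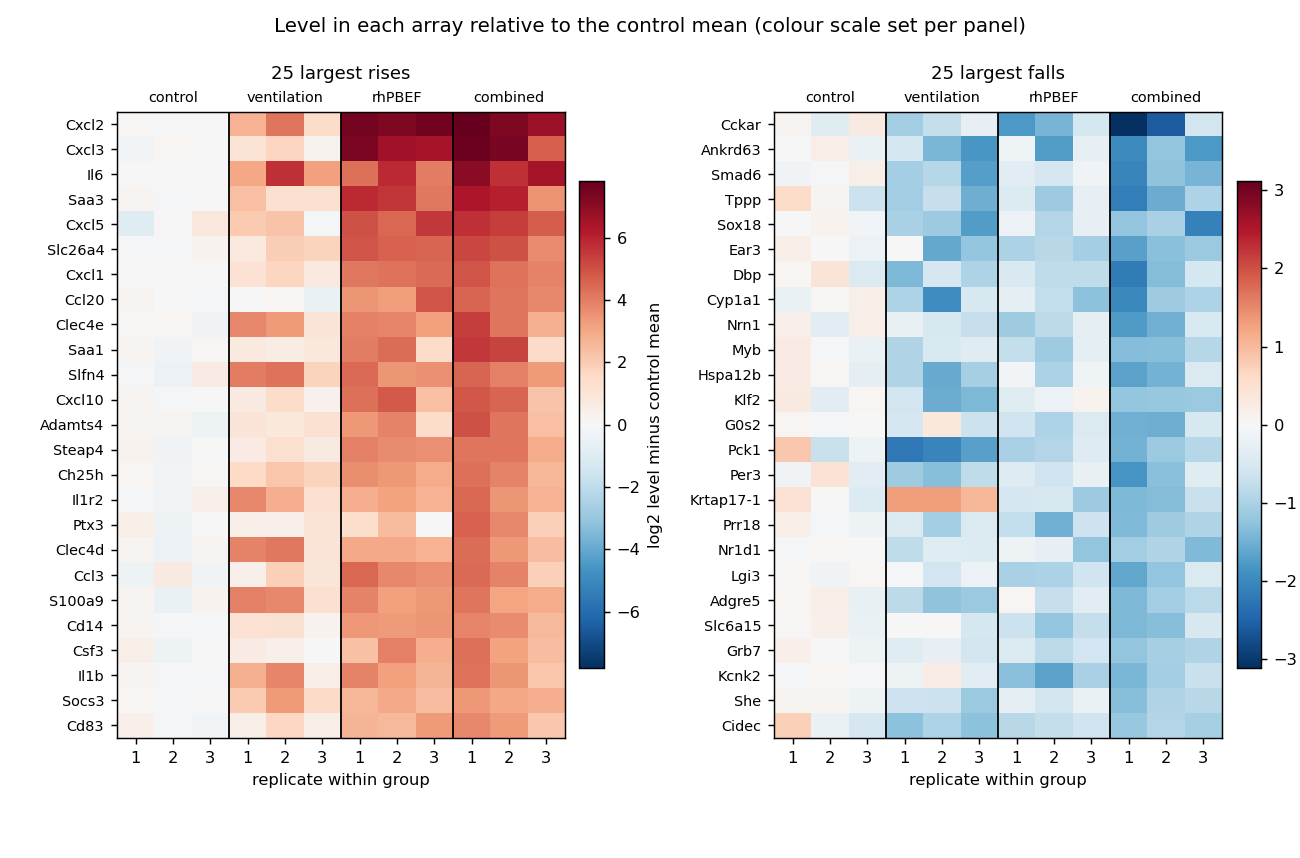
Log2 level of the 25 largest rises (left) and 25 largest falls (right) in each of the 12 arrays, minus the mean of the control arrays; columns are replicates 1 to 3 of control, ventilation, rhPBEF and the combined treatment, and each panel has its own colour scale. The combined arrays are coloured throughout both panels, combined replicate 3 is paler than replicates 1 and 2 in most rows, for example in Cxcl3 and Saa1, and ventilation alone is pale for many of the largest rises.

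Receptors that recognise bacterial products were among the genes that rose. Of 16 tested genes of Toll-like receptor signalling 5 rose and 0 fell, with a median change of 0.35 over the list. Cd14, the co-receptor that hands lipopolysaccharide to Tlr4, was at 10.23, 9.90 and 9.96 in the control arrays and at 13.86, 13.71 and 12.53 in the combined arrays. All combined arrays lay above all controls, and the change was 3.34 ± 0.32 on the log2 scale (SE), a 10.1-fold rise, with adjusted p = 0.00054. Tlr2, which recognises bacterial lipoproteins, rose by 2.08 ± 0.34 (adjusted p = 0.0085), and Tlr13, a sensor of bacterial RNA, by 1.47 ± 0.23 (adjusted p = 0.0079). The kinase Map3k8 and the adaptor Tirap also rose, by 1.57 and 0.65. The Toll-like list had leave-out counts of 3, 3 and 3, then 3, 3 and 6. Cd14, Tlr2 and Tlr13 passed in all 12 leave-one-out fits.

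Most genes of the NF-kB system rose. Of 18 tested subunits and inhibitors 14 rose and 0 fell, and the median change was 1.34. Tnfaip3, the A20 deubiquitinase that shuts off NF-kB activation, was at 9.11, 8.95 and 9.75 in controls and at 12.54, 11.98 and 11.34 with the combined treatment. Its arrays did not overlap, and it rose by 2.68 ± 0.30 (adjusted p = 0.0013). Nfkbiz, an atypical inhibitor that also coactivates late target genes, rose from 9.03, 9.26 and 9.19 to 11.99, 11.50 and 11.42, by 2.48 ± 0.40 (adjusted p = 0.0088). Bcl3 rose by 2.45, Zc3h12a, the RNase Regnase-1 that degrades cytokine mRNA, by 2.06, Nfkbie by 1.99 and the subunit Relb by 1.88. The remaining members that rose were Birc3, Tnip1, Nfkb2, Birc2, Nfkbib, Rela, Nfkbia and Cyld. The NF-kB list had leave-out counts of 8, 8 and 9, then 8, 7 and 14. The 7 that passed in every leave-one-out fit were Relb, Nfkbie, Nfkbiz, Bcl3, Tnfaip3, Birc3 and Zc3h12a. The probe sets of Zc3h12a disagreed in size, from 0.80 to 2.06, but not in direction.

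Promoter sequences show where the letters of the NF-kB consensus lie in genes of this group. RefSeq promoter windows on GRCm38.p6 were matched by symbol for 10408 of the 12921 tested genes, and the 250 bases before each gene's most upstream start were searched on both strands for the NF-kB consensus of 10 bases. It occurred in 3.74% of all 27025 promoters in the table, in 4.40% of tested genes, in 10.1% (41 of 406) of genes that rose and in 4.14% (21 of 507) of genes that fell. Among the 25 largest rises 20 had a window, and 7 of them held a match, namely Ccl20, Cxcl1, Cxcl10, Cxcl2, Cxcl3, Il6 and Steap4. Among the 25 largest falls 17 had a window and 1, She, held a match. Of the 12 risen NF-kB genes with a window 6 held a match. Other motifs were searched in the same way. TGANTCA, the AP-1 site, occurred in 6.65% of genes that rose and 4.43% of tested genes, TTCNNNGAA, the STAT site, in 9.85% and 5.81%, and the E-box CACGTG in 9.61% and 8.26%. None of these motifs overlaps the NF-kB consensus in the windows printed here, and a match is a description of letters, not a bound site. The 120 bases before the start are printed for the chemokine genes Cxcl1, Cxcl2 and Cxcl3, for Il6, and for the inhibitor genes Nfkbia and Tnip1, in the direction of transcription and with the NF-kB matches in capitals; they were chosen after the values were seen.

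Cxcl1, chr5:90891125-90891244, plus strand: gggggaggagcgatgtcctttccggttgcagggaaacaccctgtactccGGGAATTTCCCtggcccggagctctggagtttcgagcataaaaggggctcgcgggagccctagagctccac
Cxcl2, chr5:90903779-90903898, plus strand: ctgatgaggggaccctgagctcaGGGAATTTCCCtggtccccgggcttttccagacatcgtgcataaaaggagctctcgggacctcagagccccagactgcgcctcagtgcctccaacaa
Cxcl3, chr5:90785981-90786100, plus strand: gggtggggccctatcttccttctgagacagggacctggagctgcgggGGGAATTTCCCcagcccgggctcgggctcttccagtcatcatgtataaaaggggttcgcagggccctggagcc
Il6, chr5:30012994-30013113, plus strand: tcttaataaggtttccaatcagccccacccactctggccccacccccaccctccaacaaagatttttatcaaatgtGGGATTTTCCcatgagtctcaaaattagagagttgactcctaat
Nfkbia, chr12:55492648-55492767, minus strand: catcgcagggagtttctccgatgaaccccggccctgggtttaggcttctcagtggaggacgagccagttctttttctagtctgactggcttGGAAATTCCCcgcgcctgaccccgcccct
Tnip1, chr11:54962941-54963060, minus strand: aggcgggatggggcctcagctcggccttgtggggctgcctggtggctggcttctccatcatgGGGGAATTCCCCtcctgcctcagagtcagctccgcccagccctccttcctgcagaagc

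Cxcl1, Cxcl2 and Cxcl3 carry the same run GGGAATTTCCC, in which 2 overlapping matches of the consensus lie. It begins 71 bases before the start in Cxcl1, 97 in Cxcl2 and 73 in Cxcl3. Il6 carries GGGATTTTCC from 44 bases before its start, Nfkbia GGAAATTCCC from 29, and Tnip1 the palindrome GGGGAATTCCCC from 58.

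The neutrophil-attracting chemokines had the highest median of the 60 lists. All 7 tested ELR CXC chemokines, the ligands of the neutrophil receptor Cxcr2, had positive changes, 4 passed, and the median was 4.33 against −0.06 for all genes. Cxcl2 was at 5.48, 5.33 and 5.31 in the control arrays, 13.18, 12.66 and 12.13 in the combined arrays, 12.82, 12.69 and 12.90 with rhPBEF and 8.06, 9.53 and 6.80 with ventilation. It had the largest rise of all genes, 7.28 ± 0.52 on the log2 scale or 156-fold (adjusted p = 0.00014), from a control level below the filter. Cxcl3 stood at 3.41, 3.78 and 3.61 in controls and 11.25, 11.02 and 8.30 with the combined treatment, so that combined replicate 3 was far below the other arrays of its group and still far above the controls. It rose by 6.59 ± 0.65 (adjusted p = 0.00068). Cxcl5, made mainly by epithelium, rose from 4.11, 5.13 and 5.93 to 10.77, 10.49 and 9.78, by 5.29 ± 0.61 (adjusted p = 0.0015). Cxcl1, at 7.96, 7.86 and 7.94 in controls and 12.83, 12.14 and 11.78 with the combined treatment, rose by 4.33 ± 0.26 (adjusted p = 4e-05), and its 3 probe sets gave changes from 1.37 to 6.72. These 4 genes passed in every leave-one-out fit. Cxcl15, the lung-specific member, was at 13.82, 13.79 and 13.92 and 13.89, 13.95 and 13.79, and its change was 0.037 ± 0.098 (adjusted p = 0.84).

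Among the other chemokine ligands the pattern was mixed. Of 15 tested CC chemokines 7 rose and 0 fell, with a median of 1.61. Ccl20, which attracts dendritic cells and lymphocytes through Ccr6, went from 7.49, 7.22 and 7.14 to 11.83, 11.49 and 11.07, a rise of 4.18 ± 0.38 (adjusted p = 0.00041) with little spread between the combined arrays. Ccl3, a macrophage inflammatory protein, rose from 5.08, 6.17 and 5.24 to 9.92, 9.35 and 7.37, by 3.38 ± 0.60 (adjusted p = 0.012). The monocyte attractants Ccl2, Ccl7 and Ccl12 rose by 2.52, 1.82 and 2.56, and Ccl17, a ligand of Ccr4, by 2.22, with adjusted p between 0.023 and 0.049. The CC list had leave-out counts of 1, 2 and 2, then 1, 1 and 11, and Ccl20 alone held in every fit. Cxcl10, an interferon-inducible ligand of Cxcr3, rose from 7.04, 6.68 and 6.77 to 11.71, 11.39 and 9.08, by 3.90 ± 0.71 (adjusted p = 0.014). Cxcl14 rose by 0.52, and the other 6 tested ligands of that list did not pass, with leave-out counts of 1, 0 and 1, then 0, 0 and 5. Of 12 chemokine receptors tested, Ccr1, found on neutrophils and monocytes, alone rose, by 2.65 ± 0.48 (adjusted p = 0.014).

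**Figure D2:**
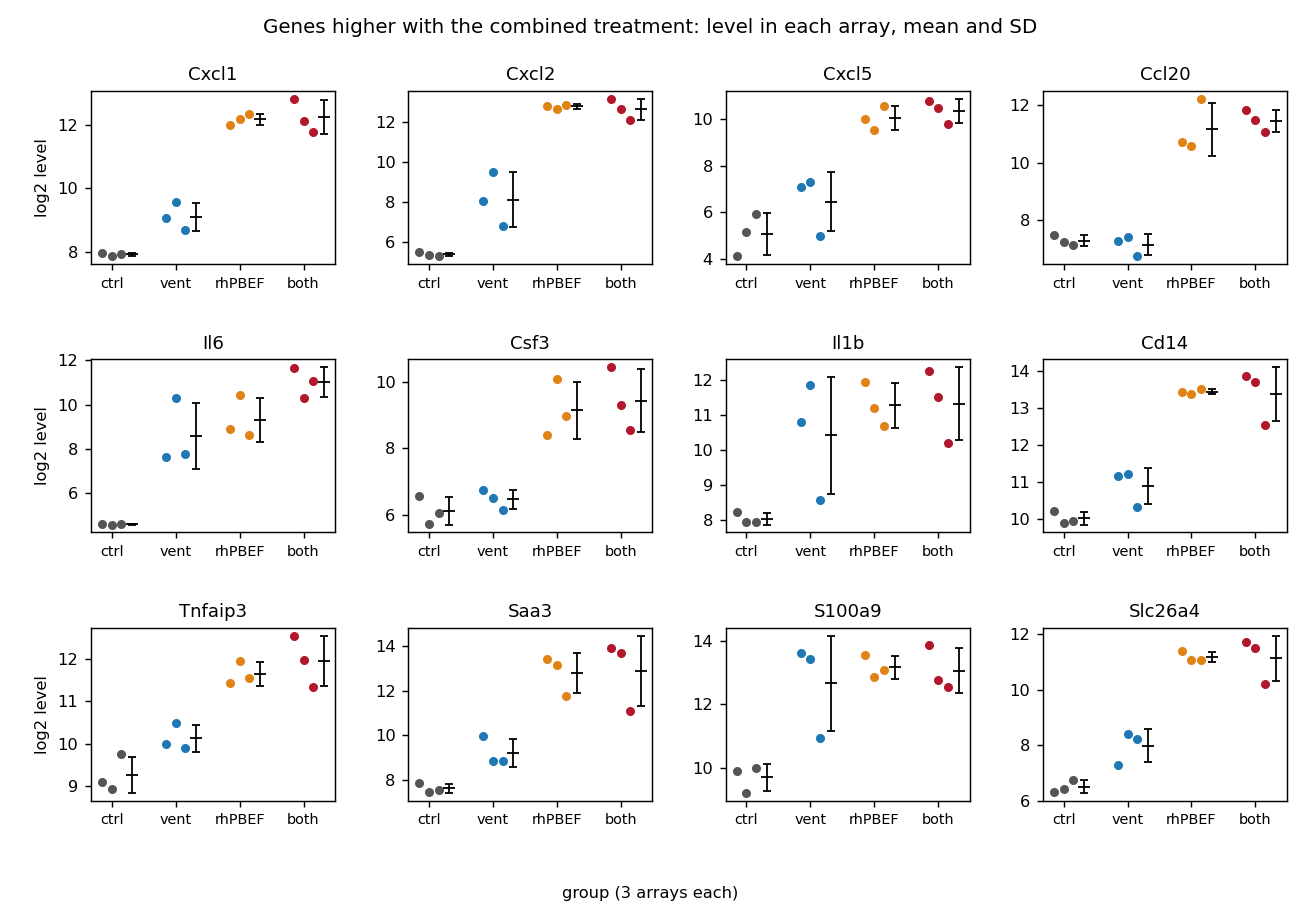
Log2 level of 12 genes that were higher with the combined treatment, in each array of the control, ventilation, rhPBEF and combined groups (points), with the mean and SD of the 3 arrays (bar). Cxcl1, Cxcl2, Cxcl5, Ccl20 and Slc26a4 are high in rhPBEF and combined arrays and low or intermediate with ventilation alone, whereas S100a9 is raised in all 3 treated groups.

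Cytokines of the interleukin families rose with the chemokines. Il6, the main inducer of the acute phase response, was at 4.63, 4.59 and 4.61 in controls, 11.66, 10.32 and 11.09 with the combined treatment, 8.89, 10.45 and 8.61 with rhPBEF and 7.65, 10.30 and 7.78 with ventilation. Its rise was 6.41 ± 0.67 (adjusted p = 0.00082), and combined replicate 2, not replicate 3, was the lowest of its group. Of 16 tested genes of the IL-6 family and its STAT3 feedback 8 rose and 0 fell, with a median of 0.83. Socs3, the STAT3-induced inhibitor of the receptor, rose from 9.57, 9.35 and 9.41 to 12.80, 12.45 and 12.28, by 3.07 ± 0.36 (adjusted p = 0.0019). Osmr, the oncostatin M receptor chain, rose by 1.61 ± 0.23 (adjusted p = 0.0058), and Bcl3, Junb, Pim1, Stat3 and Socs2 completed the set. The IL-6 list had leave-out counts of 5, 5 and 4, then 5, 4 and 11.

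The IL-1 family moved in the same direction on both its activating and its inhibitory side. Of 18 tested members 11 rose and 0 fell, with a median of 1.16. Il1b was at 8.23, 7.94 and 7.94 in controls and 12.26, 11.50 and 10.20 with the combined treatment, a rise of 3.29 ± 0.73 (adjusted p = 0.025). Il1r2, the decoy receptor that binds IL-1 without signalling, rose from 7.04, 6.97 and 7.58 to 11.65, 10.64 and 9.90, by 3.54 ± 0.56 (adjusted p = 0.0077), and Il1rn, the secreted receptor antagonist, by 2.64 ± 0.55 (adjusted p = 0.022), with probe sets from 0.66 to 2.64. Casp4, the inflammatory caspase of cytosolic lipopolysaccharide, and Il1f9, now called Il36g, rose by 1.92 and 1.83. Il18rap, Il1a, Il33, Myd88, Nlrp3 and Il1r1 were the other members that passed. The IL-1 list had leave-out counts of 4, 3 and 6, then 5, 3 and 13. Il1r2, Casp4 and Il1f9 passed in every fit, and Il1b did not.

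Growth factors of myeloid cells and their receptors rose as well. Of 11 tested colony-stimulating factors and receptors 7 rose, 0 fell and the median was 1.49. Csf3, or G-CSF, which drives neutrophil production, was at 6.57, 5.73 and 6.06 in controls and 10.43, 9.28 and 8.55 with the combined treatment. It rose by 3.30 ± 0.48 (adjusted p = 0.0058) and passed in every leave-one-out fit. Csf2, or GM-CSF, went from 7.71, 7.57 and 6.82 to 10.82, 10.51 and 8.004, with combined replicate 3 close to the controls, and its change was 2.41 ± 0.62 (adjusted p = 0.04). The receptor chains Csf3r, Csf2rb and Csf2rb2 rose by 1.97, 1.68 and 1.49; Csf2rb and Csf2rb2 are near-identical copies, and their probe sets may share signal. Csf1 rose by 1.53 and Il34, which shares its receptor, by 0.58. The CSF list had leave-out counts of 2, 1 and 1, then 1, 1 and 7. In the TNF superfamily 6 of 14 tested members rose and 1, Tnfrsf21, fell. Tnf itself rose by only 0.72 ± 0.15 (adjusted p = 0.021), less than the receptor Tnfrsf9 at 1.89 and the ligand Tnfsf9 at 2.10. The TNF list had leave-out counts of 2, 1 and 1, then 2, 1 and 7.

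Genes that limit inflammation were among the rises. Of 22 tested negative regulators of cytokine mRNA and signalling 11 rose and 0 fell, with a median of 1.01. They were Il1r2, Socs3, Tnfaip3, Il1rn, Bcl3, Zc3h12a, Tnip1, Sbno2, Cd300lf, Zfp36 and Nfkbia, several of which also belong to the lists above. Zfp36, or tristetraprolin, which destabilises Tnf and other cytokine mRNAs, was at 11.15, 10.53 and 11.05 in controls and 12.55, 11.94 and 12.20 with the combined treatment, a rise of 1.32 ± 0.22 (adjusted p = 0.01). The negative regulators had leave-out counts of 7, 7 and 8, then 7, 7 and 14. Ch25h, which makes the antiviral oxysterol 25-hydroxycholesterol, rose from 7.88, 7.53 and 7.85 to 12.04, 11.62 and 10.35, by 3.58 ± 0.36 (adjusted p = 0.00068).

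Acute phase and iron-binding proteins followed. Of 13 tested acute phase genes 10 rose, 0 fell and all had positive changes, with a median of 1.98. Saa3, serum amyloid A made locally in the lung, was at 7.83, 7.44 and 7.55 in controls, 13.92, 13.69 and 11.09 with the combined treatment, 13.42, 13.17 and 11.74 with rhPBEF and 9.94, 8.83 and 8.83 with ventilation. Its rise was 5.29 ± 0.68 or 39.2-fold (adjusted p = 0.0029). Saa1 went from 5.10, 4.61 and 4.96 to 10.40, 10.16 and 6.37, so that combined replicate 3 carried little of its change of 4.09 ± 0.97 (adjusted p = 0.032); the Saa genes are similar enough for a probe set to bind more than its own transcript. Ptx3, a soluble pattern-recognition protein, rose from 6.70, 5.88 and 6.22 to 10.87, 10.04 and 8.10, by 3.41 ± 0.68 (adjusted p = 0.018). Lcn2, which withholds iron from bacteria by binding siderophores, was high already at 11.01, 11.18 and 11.52 and reached 13.61, 13.62 and 12.93, a rise of 2.15 ± 0.21 (adjusted p = 0.00064). Hpx, the haem carrier, rose by 2.32, Orm1 by 2.60 and Fgg, a fibrinogen chain, by 1.98 ± 0.16 (adjusted p = 0.00024). The acute phase list had leave-out counts of 6, 5 and 5, then 5, 5 and 11. Of 13 iron-handling genes Steap4, Hpx and Lcn2 rose. Steap4, a metalloreductase induced by inflammation, rose from 8.96, 8.44 and 8.72 to 12.89, 12.85 and 11.58, by 3.74 ± 0.31 (adjusted p = 0.00024), and all 3 passed in every fit.

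Transcripts typical of neutrophils were more abundant. Of 18 tested neutrophil markers 11 rose and 0 fell, with a median of 1.89. Averaged over the list, their log2 levels minus the control mean were 0.07, -0.13 and 0.06 in the control arrays and 2.77, 1.80 and 1.35 in the combined arrays, 1.93, 1.71 and 1.63 with rhPBEF and 2.10, 1.97 and 0.53 with ventilation. S100a9, a subunit of the abundant neutrophil protein calprotectin, was at 9.88, 9.20 and 9.98 in controls and 13.87, 12.76 and 12.55 with the combined treatment. It rose by 3.38 ± 0.61 (adjusted p = 0.014), and its partner S100a8 by 3.01. Clec4e and Clec4d, which are lectin receptors of myeloid cells, rose by 4.10 ± 0.71 (adjusted p = 0.011) and 3.40 ± 0.70 (adjusted p = 0.021). Mmp8, neutrophil collagenase, went from 7.32, 7.02 and 7.41 to 11.38, 10.26 and 9.15, by 3.02 ± 0.74 (adjusted p = 0.035). Lcn2, Csf3r, Il1r2, Fpr2, Trem1 and Hdc also passed, and of these Csf3r and Il1r2 stand in the cytokine lists too. The neutrophil list had leave-out counts of 6, 3 and 5, then 3, 5 and 14. How much of any rise above came from more neutrophils was not tested.

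Adhesion molecules and markers of other leukocytes were also examined. Of 15 tested adhesion molecules 5 rose, 0 fell and the median was 0.25. Icam1, the endothelial ligand for neutrophil integrins, rose from 12.08, 12.27 and 12.27 to 13.77, 13.60 and 12.96, by 1.24 ± 0.18 (adjusted p = 0.0059), Vcam1 by 1.07, Cd44, the hyaluronan receptor, by 1.08, Selplg, the selectin ligand of leukocytes, by 0.87 and Itgam, the Mac-1 integrin chain, by 1.52. The adhesion list had leave-out counts of 2, 2 and 2, then 2, 2 and 6. Among 21 macrophage and monocyte markers 1 rose, the scavenger receptor Marco, by 1.65 ± 0.31 (adjusted p = 0.015), and 1 fell, Siglecf, a lectin of alveolar macrophages and eosinophils, with a change of −1.03 ± 0.24 (adjusted p = 0.029). Neither held without every array. Averaged over the macrophage list, log2 levels minus the control mean were 0.10, -0.07 and -0.03 in controls and 0.30, 0.01 and -0.09 with the combined treatment. Of the mast cell, eosinophil and basophil list 4 members were above the filter, and Siglecf and Ear3 fell; Ear3, at −1.38 ± 0.32, belongs to a family of near-identical genes and is uncertain. Among 17 T and NK cell markers none passed in limma, with 2 higher and 1 lower at an unadjusted p of 0.05, and among 15 B cell and plasma cell markers Fcer2a rose by 0.66. Of 20 genes of MHC class II and dendritic cells 3 rose, Cd83, Cd40 and Batf3. Cd83, an activation marker of dendritic cells, rose from 8.48, 7.96 and 7.87 to 11.86, 11.41 and 10.23, by 3.06 ± 0.43 (adjusted p = 0.005), and held in every fit. None of 11 erythroid and platelet markers passed, with 2 higher at an unadjusted p of 0.05. Complement genes numbered 16, of which Itgam and Cfb rose, Cfb by 1.21.

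Interferon-inducible genes showed small positive changes that mostly missed the threshold. Of 25 tested 5 rose, Gbp2, Rsad2, Ifit1, Gbp3 and Irgm1, while 24 had positive changes and the median was 0.50. Gbp2, a guanylate-binding GTPase, went from 9.71, 9.74 and 10.12 to 12.40, 12.27 and 10.43, by 1.84 ± 0.45 (adjusted p = 0.034). The interferon list had leave-out counts of 0, 0 and 0, then 0, 0 and 16. Of 6 tested Schlafen genes, interferon-inducible and myeloid, 4 rose with a median of 1.11. Slfn4 rose from 6.14, 5.84 and 6.98 to 10.86, 10.25 and 9.62, by 3.92 ± 0.60 (adjusted p = 0.0065), Slfn1 by 2.06, Slfn2 by 1.53 and Slfn8 by 0.69. Slfn2 and Slfn4 passed in every fit.

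Early response factors, which stretch and growth factors induce within minutes to hours, rose in few cases. Of 13 AP-1 and ATF factors 2 rose, Junb by 1.77 ± 0.39 (adjusted p = 0.025) and Fosl2 by 1.42 ± 0.24 (adjusted p = 0.011), and all 13 had positive changes, with a median of 0.47. The probe sets of Fosl2 ranged from 0.16 to 1.42. Of 26 Egr, Nr4a and other early factors 3 rose, Egr2 by 1.56, Gadd45g by 1.38 and Zfp36. Of 15 dual-specificity phosphatase and Sprouty genes, feedback inhibitors of MAP kinases, 4 rose, Spry4 by 1.47, Dusp16 by 0.998, Dusp2 by 0.98 and Spred1 by 0.69, and Dusp7 fell by 0.65. Leave-out counts of genes that rose were 1, 1 and 1, then 0, 1 and 4 for AP-1 and ATF factors, 1, 1 and 2, then 1, 1 and 5 for the early factors, and 0, 0 and 1, then 0, 1 and 4 for the phosphatases.

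Genes of mechanical stretch and matrix injury had a median of 0.66, and 4 of 21 rose. Adamts4, a protease that cleaves proteoglycans, went from 5.85, 5.86 and 5.29 to 10.64, 9.87 and 8.002, a rise of 3.84 ± 0.67 (adjusted p = 0.012). Timp1, an inhibitor of matrix metalloproteinases, rose by 1.95 ± 0.52 (adjusted p = 0.044), and Has1, a hyaluronan synthase, from 7.77, 7.45 and 7.15 to 9.76, 8.75 and 8.97, by 1.71 ± 0.40 (adjusted p = 0.031). Cd44 completed the set and alone passed in every fit. The stretch list had leave-out counts of 2, 2 and 2, then 1, 1 and 8. Among 18 coagulation genes F5 rose by 0.83 and Thbd fell. Of 26 fibroblast and matrix genes Ltbp4 fell by 0.32 and none rose, with 0 higher at an unadjusted p of 0.05.

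Epithelial ion transport included a gene with a very large rise. Slc26a4, or pendrin, an apical anion exchanger of airway epithelium, was at 6.32, 6.43 and 6.75 in controls, 11.71, 11.48 and 10.20 with the combined treatment, 11.38, 11.08 and 11.07 with rhPBEF and 7.29, 8.39 and 8.23 with ventilation. Its rise was 4.63 ± 0.37, or 24.8-fold (adjusted p = 0.00024). Cftr, the chloride channel mutated in cystic fibrosis, rose from 6.94, 7.02 and 6.92 to 8.40, 8.36 and 7.60, by 1.16 ± 0.20 (adjusted p = 0.011), its scaffold Slc9a3r1 by 0.75, the basolateral chloride importer Slc12a2 by 0.59 and the bicarbonate importer Slc4a4 by 0.41. Kcnk2, the stretch-activated potassium channel TREK-1, fell from 9.59, 9.69 and 9.59 to 8.19, 8.56 and 8.93, a change of −1.06 ± 0.21 (adjusted p = 0.018). The other 12 of 18 tested transporters did not pass, and the list's median was −0.11. The transport list had leave-out counts of 3, 3 and 3, then 2, 2 and 6, with Slc26a4 and Slc12a2 in every fit.

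Metabolic genes changed in selected enzymes. Of 23 metallothionein and antioxidant genes 8 rose and 0 fell, with a median of 0.21. Mt2 and Mt1, zinc-binding proteins induced by metals, glucocorticoids and inflammation, rose by 1.84 ± 0.28 (adjusted p = 0.0065) and 1.66 ± 0.27 (adjusted p = 0.0091). Sod2, the mitochondrial superoxide dismutase, rose from 11.34, 11.14 and 11.10 to 13.001, 12.88 and 11.98, by 1.43 ± 0.22 (adjusted p = 0.0074), Slc39a14, a zinc and iron importer, by 2.06 and Slc7a11, the cystine importer, by 1.43. The antioxidant list had leave-out counts of 3, 4 and 3, then 3, 3 and 9. Among 25 hypoxia and glycolysis genes 7 rose and 2 fell. Adm, the vasodilator adrenomedullin, rose by 1.82 ± 0.49 (adjusted p = 0.044), Pfkfb3, an activator of glycolysis, by 1.40 ± 0.31 (adjusted p = 0.024), Hk2 by 1.09, Hif1a by 1.05, Ndrg1 by 0.90 and Slc2a1 by 0.82, Ldha was also among them, and the glycolytic enzymes Pfkl and Tpi1 fell. The hypoxia list had leave-out counts of 0, 0 and 0, then 0, 0 and 8. Of 13 genes of arginine and nitric oxide metabolism 4 rose, Arg2, a mitochondrial arginase, by 1.81 ± 0.22 (adjusted p = 0.0023), Gch1, which makes the cofactor of nitric oxide synthases, by 1.34, the arginine importer Slc7a2 by 1.07 and Odc1 by 0.89. The arginine list had leave-out counts of 2, 2 and 2, then 2, 2 and 5.

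In the lists of lipid mediators and sterols few genes passed. Of 21 prostaglandin and leukotriene genes Ptges, the inducible prostaglandin E synthase, rose by 1.37 ± 0.35 (adjusted p = 0.041) and its receptor Ptger4 by 1.24 ± 0.17 (adjusted p = 0.005). Ptgfr, Ltc4s and Lta4h fell, with changes of −0.85, −0.85 and −0.36. Of 14 cholesterol synthesis genes Cyp51, Hmgcs1 and Idi1 rose, by 0.61, 0.61 and 0.54. Leave-out counts of genes that rose were 1, 1 and 1, then 1, 1 and 3 for the prostaglandin list and 0, 0 and 1, then 1, 0 and 4 for the cholesterol list.

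The gene that encodes mouse PBEF did not pass with all arrays. It passed without combined replicate 3, and in no other fit that left out 1 array. Nampt was at 10.54, 10.60 and 10.36 in controls and 10.88, 11.11 and 10.62 with the combined treatment, and the change was 0.37 ± 0.12 (adjusted p = 0.073). The combined arrays all lay above the controls, as they did for 1619 of 12921 genes, and for 3153 genes they all lay below. Of 21 tested genes of NAD metabolism Nadk, which phosphorylates NAD to NADP, rose by 0.45, the mitochondrial deacylase Sirt3 changed by −0.50 and Nadsyn1, NAD synthetase, by −0.37. The list's median was −0.12. The NAD list had leave-out counts of 0, 0 and 0, then 0, 0 and 5 for genes that rose, and 0, 0 and 0, then 0, 0 and 4 for genes that fell.

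**Figure D3:**
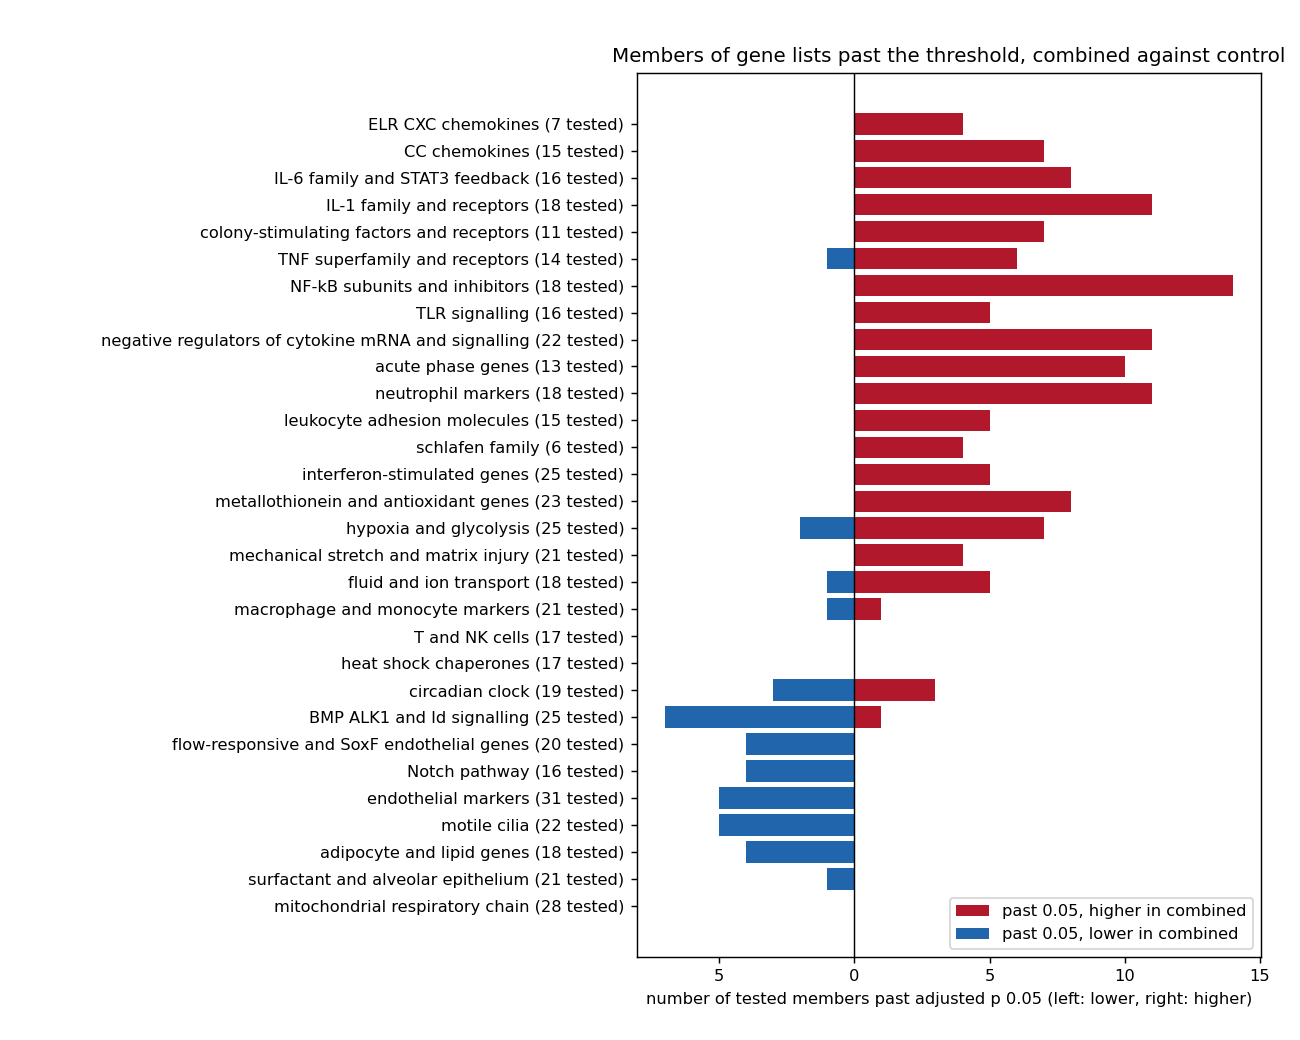
Number of tested members of 30 gene lists that passed an adjusted p of 0.05 for the combined treatment against control, with bars to the right for genes that were higher and to the left for genes that were lower. The NF-kB list has 14 of 18 members to the right, and the BMP, ALK1 and Id list has 7 of 25 to the left and 1 to the right.

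The genes that fell included endothelial signalling genes. Of 25 tested genes of BMP, ALK1 and Id signalling 7 fell and 1 rose, with a median of −0.06, the same as over all genes, so the falls were limited to a subset. Smad6, an inhibitory Smad that BMP signals induce, was at 12.18, 12.22 and 12.46 in controls, 10.24, 11.04 and 10.85 with the combined treatment, 11.93, 11.77 and 12.18 with rhPBEF and 11.22, 11.39 and 10.56 with ventilation. The combined arrays lay below all controls, and the change was −1.58 ± 0.24, 2.98-fold lower (adjusted p = 0.0062). Acvrl1, which encodes ALK1, fell from 11.36, 11.54 and 11.33 to 10.48, 10.69 and 10.89, a change of −0.72 ± 0.12 (adjusted p = 0.0085), and its co-receptor Eng, or endoglin, from 12.38, 12.38 and 12.43 to 11.62, 11.73 and 11.84, a change of −0.67 ± 0.093 (adjusted p = 0.005). Id1, a direct BMP target, changed by −0.73 ± 0.15 (adjusted p = 0.02), Smad7 by −0.89, Hey1 by −0.97 and the receptor Acvr2b by −0.60, while the signal carrier Smad1 rose by 0.87. The BMP list had leave-out counts of 3, 4 and 3, then 3, 5 and 8, with Smad6, Acvrl1 and Eng in every fit.

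Some flow-responsive endothelial genes fell as well, among them the transcription factors Sox18, Sox17 and Klf2. Of 20 flow-responsive and SoxF genes 4 fell and 0 rose, with a median of −0.25. Sox18 was at 11.88, 12.02 and 11.81 in controls and 10.69, 10.91 and 9.79 with the combined treatment, a change of −1.44 ± 0.29 (adjusted p = 0.019), and here combined replicate 3 was the lowest. Klf2, which laminar flow induces, went from 12.53, 11.90 and 12.29 to 11.02, 11.07 and 11.08, a change of −1.18 ± 0.23 (adjusted p = 0.018), with combined arrays that were nearly equal. Sox17 changed by −0.86 and Thbd, the anticoagulant thrombomodulin, by −0.47. The flow list had leave-out counts of 0, 1 and 0, then 0, 1 and 6. Of 16 Notch pathway genes Hey1, Lfng, Mfng and Jag2 fell, with a median of −0.30 and leave-out counts of 0, 0 and 1, then 0, 0 and 6. Of 14 Eph receptors and ephrins Efna1 and Ephb4, a marker of veins, fell, and Ephb4 changed by −0.59 ± 0.095 (adjusted p = 0.0087) and passed in every fit. Of 26 genes of VEGF, angiopoietin, Tie and junctions Vegfb fell by 0.56, with leave-out counts of 0, 0 and 0, then 0, 0 and 8 for genes that fell. With all arrays this was 3.85% of the list, against 4.86% of all tested genes that were lower.

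Some general endothelial markers also fell. Of 31 tested 5 fell and 0 rose, with a median of −0.21. They were Sox18, Sox17, Ramp2, a receptor partner for adrenomedullin, Egfl7 and Eng. Ramp2 went from 13.33, 13.38 and 13.23 to 12.23, 12.54 and 12.86, a change of −0.77 ± 0.18 (adjusted p = 0.029), and Egfl7 changed by −0.76 ± 0.11 (adjusted p = 0.0055). Averaged over the list, log2 levels minus the control mean were -0.02, 0.01 and 0.01 in the control arrays and -0.35, -0.25 and -0.17 in the combined arrays. Cldn5 and Cdh5, the junction genes that define endothelium, were not among them, with levels of 12.77, 12.71 and 13.24 and 11.53, 11.59 and 11.75 in controls and of 13.05, 12.90 and 12.98 and 11.68, 11.54 and 11.70 with the combined treatment, so that their arrays overlapped. The endothelial list had leave-out counts of 2, 2 and 2, then 2, 3 and 8. She, an adaptor protein, and Hspa12b, an endothelial relative of the heat shock proteins, were among the 25 largest falls, at −1.04 ± 0.16 (adjusted p = 0.0077) and −1.19 ± 0.33 (adjusted p = 0.049).

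**Figure D4:**
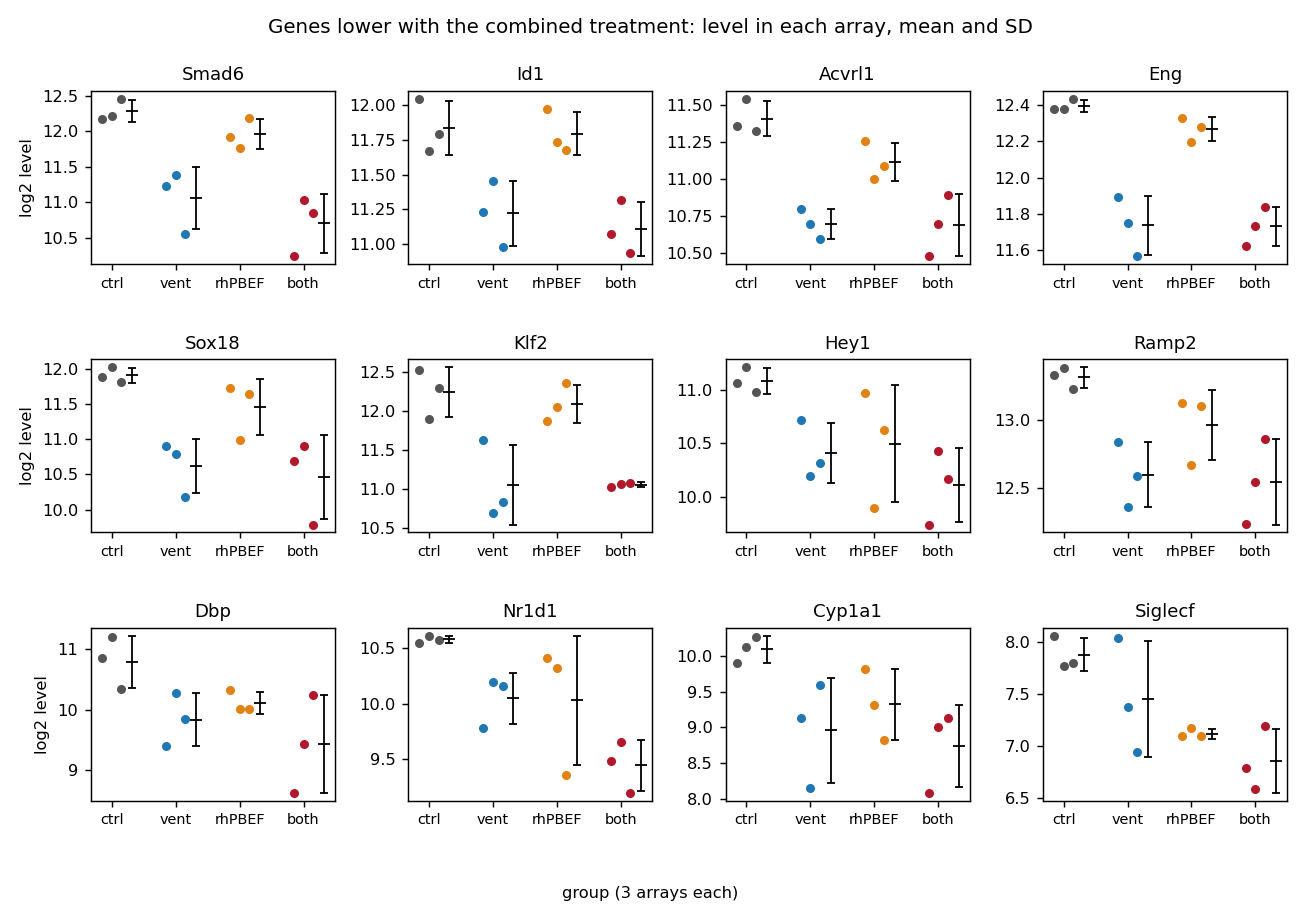
Log2 level of 12 genes that were lower with the combined treatment, in each array of the 4 groups (points), with the mean and SD of the 3 arrays (bar); each panel has its own axis, which does not start at 0. Smad6, Id1, Acvrl1, Eng, Sox18 and Klf2 are lower in each ventilation and combined array than in any rhPBEF or control array, and with rhPBEF alone Acvrl1, Eng and Sox18 also lie below all controls.

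Clock genes moved in both directions. Of 19 tested 3 rose and 3 fell. Dbp, an output factor of the clock, went from 10.85, 11.20 and 10.34 to 8.63, 9.44 and 10.25, a change of −1.36 ± 0.36 (adjusted p = 0.045), Per3 changed by −1.17 ± 0.32 (adjusted p = 0.048) and Nr1d1, the repressor Rev-erb alpha, from 10.55, 10.62 and 10.58 to 9.49, 9.65 and 9.20, a change of −1.14 ± 0.24 (adjusted p = 0.022). Nfil3, which opposes Dbp at shared sites, rose from 6.75, 6.16 and 6.84 to 9.02, 8.26 and 8.65, by 2.06 ± 0.49 (adjusted p = 0.032), Noct by 1.71 and Bhlhe40 by 1.24. Noct and Bhlhe40 passed in every fit, and the leave-out counts of the falls were 0, 0 and 0, then 0, 0 and 5. The labels give no time of day, so its part in these values cannot be told apart from treatment. Cyp1a1, a cytochrome P450 induced through the aryl hydrocarbon receptor, fell from 9.89, 10.12 and 10.27 to 8.08, 8.999 and 9.13. Its change was −1.36 ± 0.38 (adjusted p = 0.049), and the call was lost under median centring. Cyp2s1 was the other P450 of 14 that fell, and Cyp51 rose. Without the level filter 0 P450 genes passed as lower. Of the fits that left out 1 control or combined array, Cyp1a1 passed in 1.

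In the lists of motile cilia, alveolar epithelial, adipocyte and EGF receptor genes, the tested members that passed were lower. Of 22 motile cilia genes 5 fell and 0 rose, 21 had negative changes and the median was −0.22. Rsph4a, a radial spoke protein, changed by −0.83 ± 0.20 (adjusted p = 0.034), Tekt4 by −0.78, Rfx2, a ciliary transcription factor, by −0.61, and Tppp3 by −0.40. The cilia list had leave-out counts of 0, 0 and 1, then 0, 0 and 8. Of 21 surfactant and alveolar epithelial genes Cldn18, an alveolar tight junction protein, fell, with a change of −0.32 ± 0.071 (adjusted p = 0.025), with leave-out counts of 0, 0 and 0, then 0, 0 and 5. That was 4.76% of the list, near the 4.86% of all tested genes that were lower. None of 19 club, goblet and basal cell genes passed, with 2 higher and 4 lower at an unadjusted p of 0.05. Of 18 adipocyte and lipid genes 4 fell and all 18 had negative changes, with a median of −0.41. Pck1, the gluconeogenic enzyme, was at 9.03, 7.51 and 8.05 in controls and 6.73, 7.04 and 7.30 with the combined treatment, a change of −1.17 ± 0.33 (adjusted p = 0.049), and Cidec, a lipid droplet protein, changed by −1.04 ± 0.25 (adjusted p = 0.032). The adipocyte list had leave-out counts of 0, 1 and 1, then 0, 0 and 5. In the EGF receptor list of 10, Btc, or betacellulin, changed by −0.54 ± 0.13 (adjusted p = 0.036) and Erbb3 by −0.42 ± 0.11 (adjusted p = 0.047), with leave-out counts of 0, 0 and 0, then 0, 0 and 2. A further 5 measured members of this list lay below the level filter. Without the filter 1 member of the EGF receptor list rose and 1 fell.

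Other large falls belonged to no list, except Myb of the cell cycle list. Cckar, the cholecystokinin A receptor, had the largest, from 8.83, 8.36 and 9.01 to 5.62, 6.14 and 8.17, a change of −2.09 ± 0.55 (adjusted p = 0.044). Combined replicate 3 lay 0.20 below the lowest control, whereas replicates 1 and 2 were far lower. Ankrd63 changed by −1.66 ± 0.42 (adjusted p = 0.038), and Tppp, a microtubule-binding protein, by −1.55 ± 0.37 (adjusted p = 0.032). Nrn1 changed by −1.24, G0s2, an inhibitor of triglyceride lipase, by −1.17, Myb, a factor of proliferating progenitors, by −1.20, Prr18 by −1.14, Lgi3 by −1.10, the transporter Slc6a15 by −1.07 and Adgre5, the leukocyte receptor CD97, by −1.10. Grb7, an adaptor of receptor tyrosine kinases, went from 9.48, 9.30 and 9.15 to 8.07, 8.28 and 8.36, a change of −1.07 ± 0.13 (adjusted p = 0.0021), the smallest adjusted p among the 25 falls. Of 27 Wnt and TGF-beta genes Tgfbr1 rose by 0.49, and Fzd2 and Axin2, a Wnt target, fell, with changes of −0.83 and −0.70.

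Several lists had 0 members past the threshold in limma. Heat shock chaperones had a median of −0.53, with 16 of 17 negative, yet 0 passed and 1 was lower at an unadjusted p of 0.05. Cardiac muscle genes had a median of −0.52 over 14 genes, and smooth muscle genes of −0.34 over 14, with 0 and 3 lower at an unadjusted p of 0.05. Skeletal muscle genes had a median of 0.01 over 7 genes. In the 28 genes of the mitochondrial respiratory chain 27 changes were negative with a median of −0.13, and 9 were lower and 1 higher at an unadjusted p of 0.05. For 14 p53 and apoptosis genes the unadjusted counts were 1 and 1. Among 26 genes of the unfolded protein and integrated stress response Slc7a11 rose, among 25 cell cycle genes Myb fell, and among 18 glucocorticoid-responsive genes Lcn2, Mt2 and Mt1 rose, all in every fit.

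Against ventilation alone, nearly all genes that passed were higher with the combined treatment, among them neutrophil-attracting chemokines. In this direct comparison 42 of 12921 genes passed (0.325%), 40 higher and 2 lower. Cxcl3 was higher by 5.58 ± 0.65 (adjusted p = 0.0041), Cxcl2 by 4.52 ± 0.52 (adjusted p = 0.0041), Ccl20 by 4.31 ± 0.38 (adjusted p = 0.0012) and Cxcl5 by 3.89 ± 0.61 (adjusted p = 0.023). Slc26a4, Cxcl1, Csf3, Steap4, Mab21l3 and Cd14 followed, with differences of 3.16, 3.14, 2.97, 2.87, 2.53 and 2.47. By list, 4 ELR chemokines, 4 NF-kB genes and 4 acute phase genes passed. The genes that were lower were Krtap17-1, annotated as a keratin-associated protein, at −2.35, and Btc, at −1.02. Il6, S100a9, Il1b and Socs3 were not among them, with differences of 2.44 ± 0.67, 0.39 ± 0.61, 0.91 ± 0.73 and 0.79 ± 0.36 and adjusted p of 0.21, 0.88, 0.74 and 0.50. Nor were Smad6 and Sox18, which differed by −0.35 ± 0.24 and −0.16 ± 0.29. With only the 6 arrays of the comparison, which give fewer degrees of freedom for the spread, 3 passed. The count was 28, 26 or 37 without control replicate 1, 2 or 3, 16, 23 or 58 without ventilation replicate 1, 2 or 3, and 17, 13 or 406 without combined replicate 1, 2 or 3.

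Against rhPBEF alone, 1 of 12921 genes passed (0.00774%) and 487 had an unadjusted p under 0.05. It was Acaa1b, a peroxisomal thiolase of fatty acid oxidation, at 7.63, 7.59 and 7.96 in the combined arrays, 9.20, 9.05 and 9.34 with rhPBEF, 8.20, 7.55 and 7.63 with ventilation and 8.69, 8.63 and 8.57 in controls. The difference was −1.47 ± 0.16 (adjusted p = 0.027), and 0 genes passed without any single control or rhPBEF array, or without combined replicate 1 or 2. Cxcl2 differed from rhPBEF alone by −0.15 ± 0.52, with a 95% interval from −1.28 to 0.99, and Cxcl1 by 0.066 ± 0.26, from −0.50 to 0.63. Il6 differed by 1.70 ± 0.67, from 0.23 to 3.18, Ptx3 by 2.11 ± 0.68, from 0.62 to 3.60, Smad6 by −1.25 ± 0.24, from −1.77 to −0.73, and Klf2 by −1.03 ± 0.23, from −1.55 to −0.52. Adjusted p for these 6 genes lay between 0.274 and 0.999, and none passed; the intervals are not adjusted for the number of genes.

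The interaction asked whether the combined change differed from the sum of the single changes on the log2 scale. It passed for 0 of 12921 genes (0%) in limma, with 288 at an unadjusted p of 0.05 and a lowest adjusted p of 0.998. The 5 genes with the smallest p were Krtap17-1, Fgg, Traf1, Cxcl2 and Lrrfip1. For Cxcl2 the combined change minus the sum was −2.91 ± 0.73, and for Krtap17-1 it was −1.64 ± 0.36. Without ventilation replicate 3 it passed for 4 genes, Cd300ld, Csf3r, H2-Q10 and S100a9, of which all but H2-Q10 are genes of neutrophils and other myeloid cells; with all arrays the combined change minus the sum was −3.09 ± 0.87 for S100a9 and −1.84 ± 0.65 for Csf3r.

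The 3 treated groups share the same control arrays, so their changes are given side by side and not as independent evidence. Cxcl3 changed by 6.77 with rhPBEF, 1.01 with ventilation and 6.59 with both. The same order of values was 3.88, −0.14 and 4.18 for Ccl20, 3.02, 0.34 and 3.30 for Csf3, and 3.41, 0.87 and 3.34 for Cd14. For the neutrophil gene S100a9 the values were 3.48, 2.98 and 3.38, and for Mmp8 2.67, 3.03 and 3.02. Il6 had 4.71, 3.97 and 6.41, and Ptx3 1.30, 0.66 and 3.41. In the endothelial genes the values were −0.33, −1.23 and −1.58 for Smad6, −0.15, −1.19 and −1.18 for Klf2, and −0.041, −0.62 and −0.73 for Id1. Over whole lists, median changes with rhPBEF, ventilation and both were 4.27, 1.01 and 4.33 for the ELR chemokines, 0.996, 0.23 and 1.34 for the NF-kB list, and 1.59, 1.33 and 1.89 for the neutrophil markers.

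**Figure D5:**
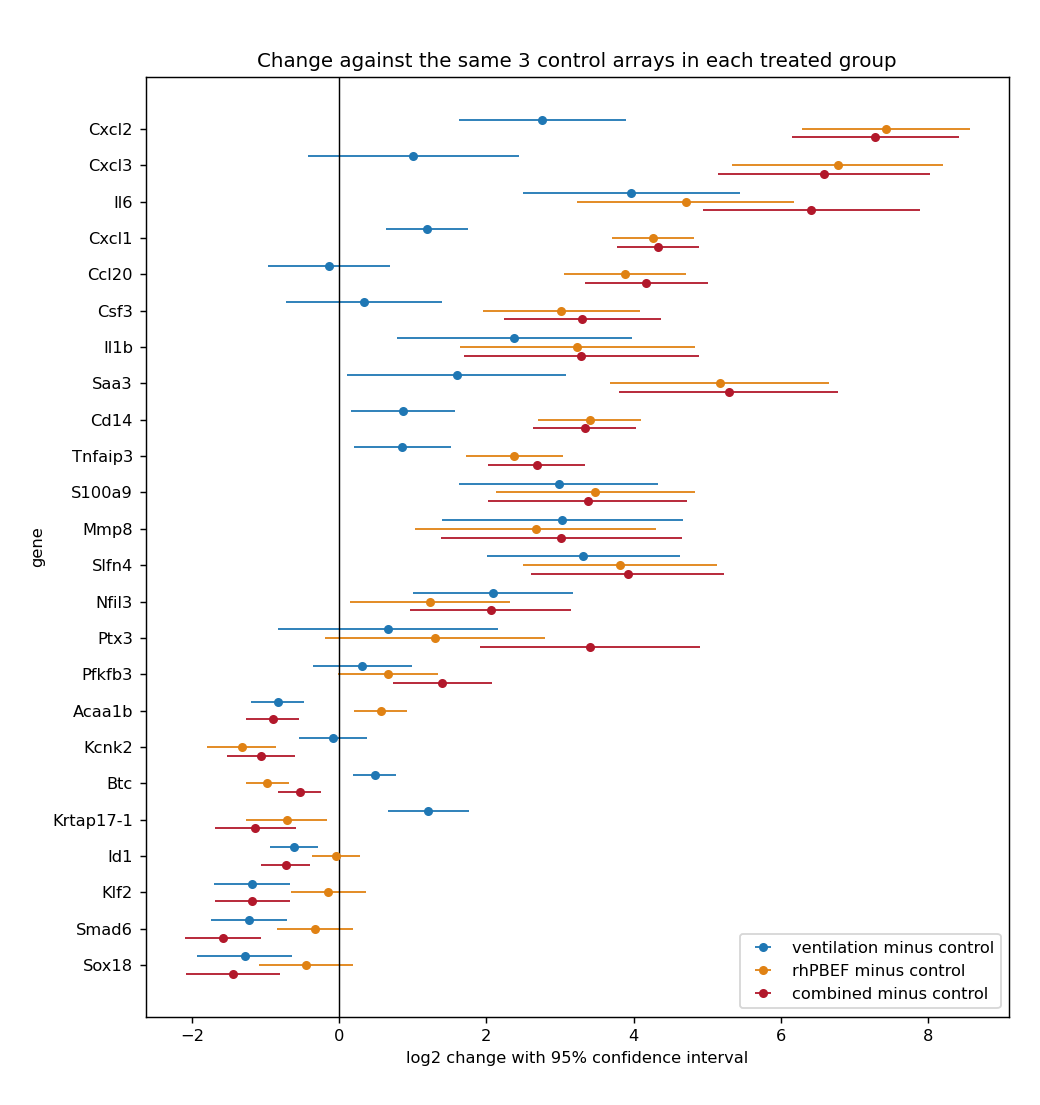
Log2 change against the same 3 control arrays in the ventilation, rhPBEF and combined groups (points) with the 95% confidence interval of limma (bars), for 24 genes. Chemokine intervals of rhPBEF and the combined treatment overlap closely and lie to the right of ventilation, whereas for Smad6, Klf2 and Sox18 the combined treatment lies with ventilation, and for Krtap17-1 and Btc ventilation lies on the other side of 0.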

How the data were processed

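Expression was taken from the table the authors deposited, in which every probe set has a log2 value on each array. MAS5 and GCRMA are named in the submitters' processing notes; roles, versions and the normalisation method are not given in sources used here. Groups follow the sample titles, although another label calls every animal a control. Values ran from 2.99 to 15.02. Of 45101 probe sets 64 controls were left out. Of the remaining 45037, 34945 carried 1 gene symbol in the platform annotation, 932 several and 9160 none. Genes kept had a mean over the 12 arrays above the 40th percentile, 6.42. This leaves out genes low in every group, and it can also leave out genes raised in only some groups. Means of 4 groups were fitted with limma 3.58.1 in R 4.3.3, with 8 residual and 2.99 prior degrees of freedom, and Benjamini-Hochberg adjustment ran over 12921 genes with a threshold of 0.05. For 3 arrays against 3 an exact test reaches a two-sided p of 0.1 at best; limma's moderated test was therefore used. The steps were tested on simulated data. Differences are log2 with their standard error. The number of arrays limits the precision.

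Members, the 60 lists and the rules were chosen with earlier results of these data known. Named genes were the 25 largest rises and 25 largest falls past 0.05 without overlap, 10 and 10 for each direct comparison with a single treatment, the 5 smallest interaction p-values, Nampt, and the 6 largest changes of each list or every member of lists of up to 12. List members picked by this rule that did not pass are mostly not named in the text. The names therefore lean towards genes that passed. Acvr2b, Eng, Lta4h, Nadk, Nadsyn1, Slc4a4, the genes whose promoters are printed and those of the closing paragraph on other genes were named after their values were seen, as were members named without a value. Of 1170 genes in the lists 1077 were measured and 950 tested, and the others are not analysed here. Alternatives changed the filter, normalisation, variance model, probe sets, arrays fitted and replicate block. Figures used matplotlib 3.10.9.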

Additional observations from a re-analysis of the deposited data

How the results depend on the processing

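Leaving out each array in turn moved the number of genes past 0.05 from 152 to 2498 for the combined treatment against control (116 to 944 higher, 36 to 1554 lower), from 13 to 406 against ventilation alone, from 0 to 3 against rhPBEF alone and from 0 to 4 for the interaction; the low ends came without combined replicate 1 or 2 (against rhPBEF also without any 1 control or rhPBEF array, and for the interaction also with all arrays), and the high ends without combined replicate 3, except that the interaction reached 4 without ventilation replicate 3. With the probe set as the unit 772 were higher, and 65 passed against ventilation and 0 against rhPBEF. Centring each array on its median gave 407 lower. With only the arrays of each comparison 3 passed against ventilation and 0 against rhPBEF, where fewer arrays estimate the spread. The mean of a gene's probe sets gave 2 against rhPBEF, Acaa1b and Eng. Without rhPBEF replicate 2 and ventilation replicate 3, the arrays with the highest levels of skeletal muscle genes, 0 passed against rhPBEF and 2 for the interaction, Cd300lb and Csf3r. For the combined treatment against control the count stayed between 932 and 1512 under all alternatives other than leaving out an array.

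With the replicate number as a block (replicate block) 1263 genes passed against control, 574 higher and 689 lower, 49 against ventilation, 0 against rhPBEF and 0 for the interaction. Deviations of same-numbered control and combined arrays correlated at 0.136, 0.065 and 0.131, not all above 0.1, so the numbers were not taken to pair the arrays, although each array correlated best with its own number.

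Of 172 genes given with a change against control, 0 reversed in any alternative. The most that lost their call was 36 outside the fits that leave out an array, with only the arrays of the comparison, and 116 within them, without combined replicate 1. Where the combined and control arrays of a gene do not overlap, leaving out an array cannot reverse its sign.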

Other observations

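Genes outside the lists also passed in all 12 fits that left out an array, and those given here were chosen after their values were seen. Tnfaip2, a TNF-inducible gene, was at 9.03, 8.88 and 8.56 in the control arrays and 12.12, 11.81 and 11.09 in the combined arrays, a rise of 2.85 ± 0.23 (adjusted p = 0.00024). Malt1, a protease of the NF-kB pathway of lymphocyte receptors, rose by 2.18 ± 0.22, Ptpn2, a phosphatase that restrains JAK and STAT signalling, by 1.57 ± 0.17, and Cebpd, a transcription factor of the acute phase, by 1.35 ± 0.16. Gja1, the gap junction protein connexin 43, was abundant at 11.02, 11.15 and 11.14 in controls and reached 13.04, 12.87 and 12.49 with the combined treatment, a rise of 1.70 ± 0.20 (adjusted p = 0.0020). Epithelial genes were among these rises, with Muc4, a membrane mucin, at 0.90 ± 0.15, Elf3, an epithelial transcription factor, at 0.87 ± 0.14, and the transporters Slc6a14 and Slc5a1 at 1.27 ± 0.21 and 0.99 ± 0.16. Ctps, which makes CTP, rose by 2.03 ± 0.23.

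Falls that passed in the same 12 fits were smaller. Lrp5, a Wnt co-receptor, was at 8.03, 7.65 and 7.87 in controls and 6.86, 6.92 and 7.04 with the combined treatment, a change of −0.91 ± 0.12 (adjusted p = 0.0045). Mycl, a relative of Myc, changed by −0.94 ± 0.13, Sox13 by −0.79 ± 0.12, Jup, the junction protein plakoglobin, by −0.77 ± 0.10, and Ndrg2 by −0.65 ± 0.11.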
